A study of Mus musculus with 2 samples.

Results

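The genes described here encode the proteins of the mitochondrial ribosome. They were taken from the deposited expression table as every protein-coding mouse gene whose symbol is Mrpl or Mrps followed by a number, Mrpl standing for the large subunit and Mrps for the small subunit. GENCODE M21 lists 78 such genes, and 76 of them had a value, out of 20330 gene identifiers in the table. Of the 76, 48 were large subunit genes and 28 were small subunit genes. Mrpl53 and Mrps6 were not analysed here. Both libraries came from adipose tissue macrophages (ATM), which were sorted from visceral fat with antibodies to F4/80 and CD11b. The WT mice were hMRP8cre-;Hif-1αfl/fl;ApoE-/- and the KO mice were hMRP8cre+;Hif-1αfl/fl;ApoE-/-, all on the C57BL/6 strain and after 12 weeks of high-fat diet. By their labels both groups were thus null for ApoE and carried floxed Hif-1α, and only the KO mice carried Cre under the human MRP8 promoter, which is active in myeloid cells. The mice were 4 weeks old when the diet began. There was 1 library per genotype, and whether a library pooled several animals is not stated in the sources used here.

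Mitochondria carry their own ribosome, which translates only the messages of mitochondrial DNA. Those messages encode core subunits of the respiratory chain and of ATP synthase. The ribosomal RNAs come from mitochondrial DNA, whereas all of the ribosomal proteins are encoded in the nucleus and imported. Some of the proteins descend from the bacterial ancestor of the organelle and others are found only in mitochondria. The large subunit joins amino acids and releases the new chain through an exit tunnel, and the small subunit binds the mRNA and reads it. Assembly of a working ribosome needs both subunits. Read by eye, a heat map that the study made from these same libraries labels some large subunit genes, Mrpl13 among them. The direction of those genes here is therefore not independent evidence.

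Values are FPKM, that is, fragments scaled to transcript length and to the number mapped in the library. Differences are KO minus WT on the log2(FPKM + 1) scale, which understates the change of low genes. Genes that reached 1 FPKM in either library were compared, and a gene was called higher or lower when it passed 3-fold on this scale. Neither genotype was replicated, so the spread between samples is unknown and p-values are not given. Summed FPKM was 585823 in WT and 568329 in KO, and from the steps between low values the depth was estimated at 5869559 and 7466183 fragments. Hif1a, the floxed gene, stood at 30.4 FPKM in WT against 20.97 in KO. That value covers the whole gene, so it does not show whether the floxed part was lost. Apoe, for which both libraries are labelled null, was listed at 94.3 FPKM in WT and 117 in KO. Transcript of this gene was thus present in both libraries, against what a null label would lead one to look for, and a value over the whole gene does not show which allele it came from. All 7 macrophage markers measured were above 0 in both libraries, with a median difference of 0.05. Among 9 neutrophil markers, 6 passed the filter and all 6 were above their WT value in KO. Their summed FPKM over all 9 was 191 in WT and 562 in KO, with Camp, Ltf and Mmp8 listed at 0 in both. Fibroblast markers summed to 43.2 and 84.3 FPKM, and all 6 were above their WT value in KO. The sums were 5.35 and 2.07 FPKM for 6 T cell markers, 2.75 and 6.46 for 5 B cell markers, 113 and 113 for 6 fat cell markers, and 17.3 and 16.0 for 5 endothelial markers. The defining markers of T cells (Cd3e, Cd3d and Cd3g), of B cells (Pax5) and of fat cells (Adipoq and Plin1) were listed at 0 in both libraries. The part of other cells in the results below was not tested. In sorted bulk RNA, fewer cells of a type and less RNA per cell cannot be told apart.

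The question of the main comparison was whether large and small subunit genes differed alike between the libraries. They did not move as a single block. Of the 76 genes, 66 passed the filter, 4 were listed at 0 in both libraries (Mrpl22, Mrpl44, Mrpl47 and Mrps31), and the other 6 stayed under 1 FPKM. Past 3-fold, 14 genes were higher in KO and 14 were lower. Over all 10297 genes tested the corresponding shares were 13.6% higher and 13.7% lower, or 27.3% in either direction, against 42.4% of the 66. The directions were distributed unevenly between the subunits. Of 42 large subunit genes, 12 were higher and 5 were lower. Of 24 small subunit genes, 2 were higher and 9 were lower. With differences of any size counted, 24 of 42 large and 10 of 24 small subunit genes were above their WT value, beside 51.3% of all genes.

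**Figure D1:**
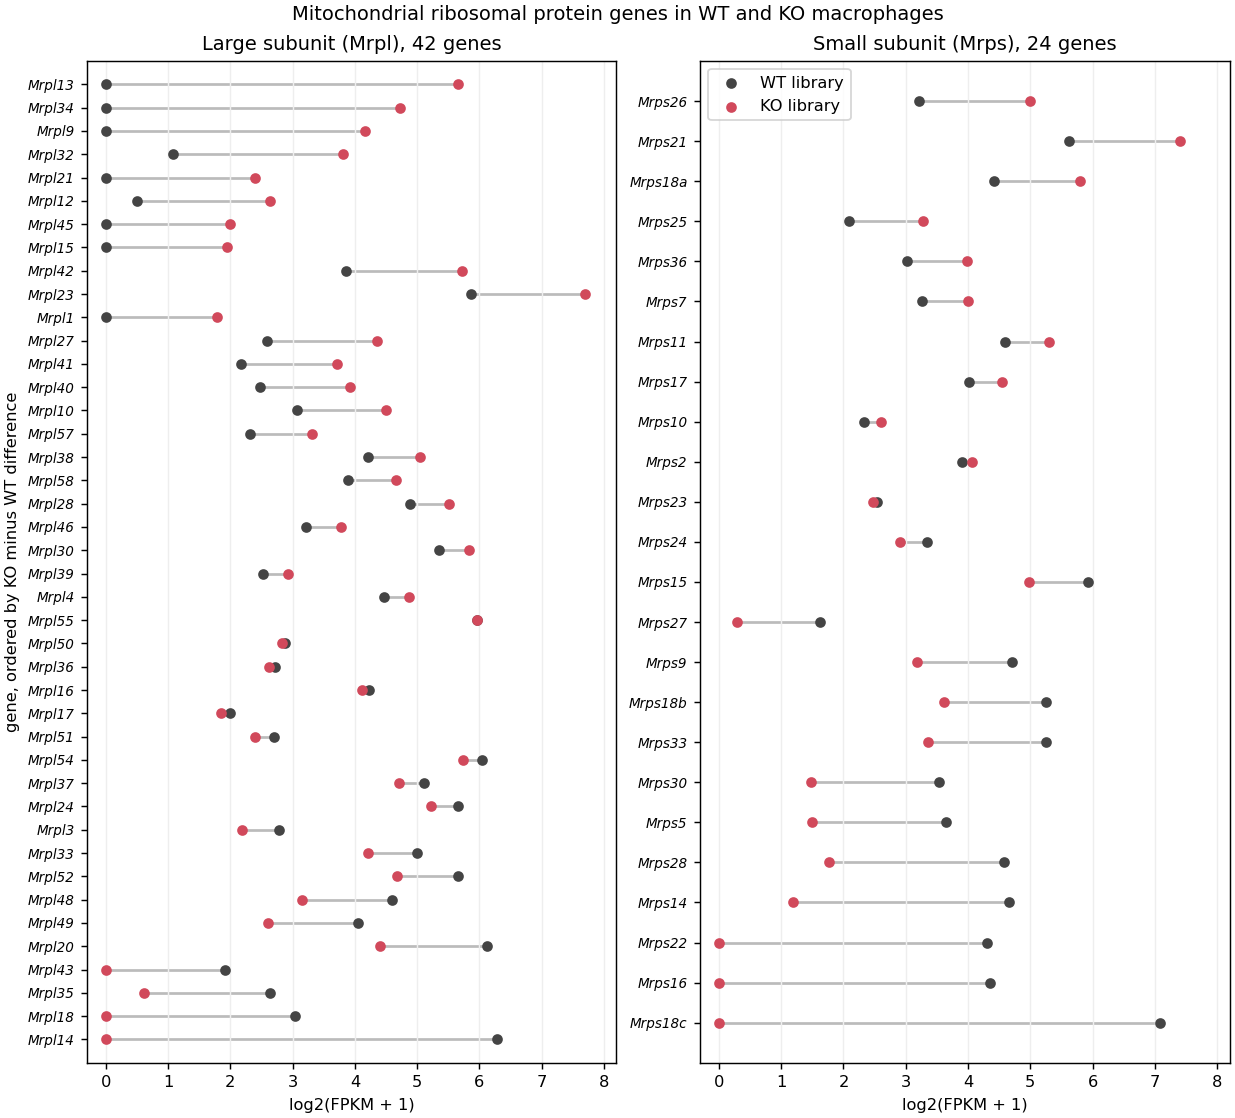
Level of each of the 66 genes that passed the filter, as log2(FPKM + 1) on the horizontal axis, in the WT library (dark points) and the KO library (red points), with large subunit genes on the left and small subunit genes on the right, each ordered by the difference. Red points lie to the right of dark points for 24 of 42 large subunit genes and for 10 of 24 small subunit genes, and points at 0 are genes listed at 0 in that library.

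Over all 66 genes the median difference was 0.09, beside 0.03 over all genes tested. It was 0.44 for the large subunit and -0.69 for the small subunit, a gap of -1.13 between them. The middle 50% of large subunit genes lay between -0.43 and 1.78, and that of small subunit genes between -2.07 and 0.71, so the distributions overlapped widely. In WT the median was 6.78 FPKM for the large subunit and 16.95 for the small subunit, whereas in KO it was 13.6 and 8.40. Summed over the genes in the table, the small subunit was at 0.747 of the large subunit in WT and at 0.476 in KO. Leaving out the highest gene of each subunit in each library gave 0.615 and 0.382.

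Much of the gap between the subunits rested on genes at or near 0 in a library, some of them high in the other. With a mean of 5 FPKM or more the medians were 0.48 for the large and -0.95 for the small subunit, a gap of -1.43. A requirement on both libraries instead leaves out every gene at 0 in a library, and with them the widest differences. When both libraries had to reach 1 FPKM, 30 large and 20 small subunit genes remained, with medians of 0.20 and 0.05. The sign for the small subunit thus turned under this requirement, and the gap shrank to -0.15. With genes placed by structure rather than by symbol the small subunit median was -0.07 under it. By symbol, the median levels were then 14.7 FPKM for the large and 14.5 for the small subunit in WT, and 18.5 and 10.3 in KO, so the small subunit no longer stood above the large one in WT. Of the calls under this requirement, 4 large subunit genes were higher and 1 was lower, and 2 small subunit genes were higher and 6 were lower. Under the same requirement 5.66% of all genes were higher and 5.89% were lower.

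**Figure D2:**
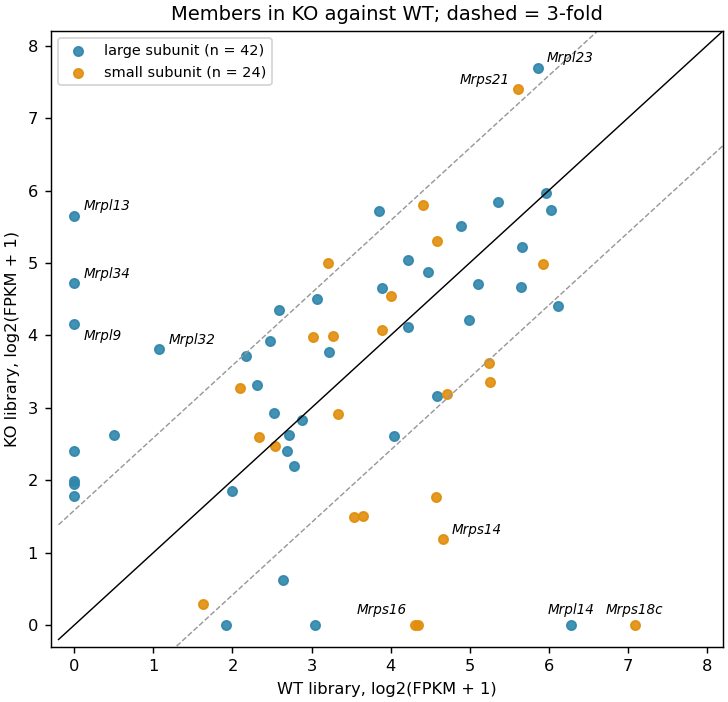
KO level against WT level, both as log2(FPKM + 1), for 42 large subunit genes (blue) and 24 small subunit genes (orange), with the line of equality and dashed lines at 3-fold. The 7 points on the left edge, all blue, are listed at 0 in WT, and the 6 points on the lower edge, 3 of each colour, are listed at 0 in KO.

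Expression level and transcript length both moved with the share of genes past 3-fold. The median transcript length was 1095 nt for the 66 genes and 2131 nt for all genes tested. Of all tested genes under 1500 nt, 31.6% passed 3-fold, beside 18 of 47 (38.3%) of the ribosomal protein genes under that length. At a mean below 5 FPKM, 8 of 14 genes of any length passed, beside 45.9% of all genes, and 5 of 9 short ones, beside 56.3% of all short genes. At 5 to 20 FPKM, 11 of 30 of any length passed, beside 26.6%, and 4 of 16 short ones, beside 37.7%. Among short genes these shares were not above the background. At 20 to 50 FPKM 6 of 17 passed, all 17 of them short, beside 11.7% of all and 19.3% of short genes. At 50 FPKM or more 3 of 5 passed, again all short, beside 3.46% and 5.69%. With genes of any length, the share was above that of all genes in each of these classes. Compared with short genes alone, it was above the background at 20 FPKM and more, where 9 genes passed: Mrps21, Mrpl23, Mrpl13, Mrpl42, Mrps18c, Mrpl14, Mrpl20, Mrps18b and Mrps33. Of these, 4 were higher and 5 were lower in KO.

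**Figure D3:**
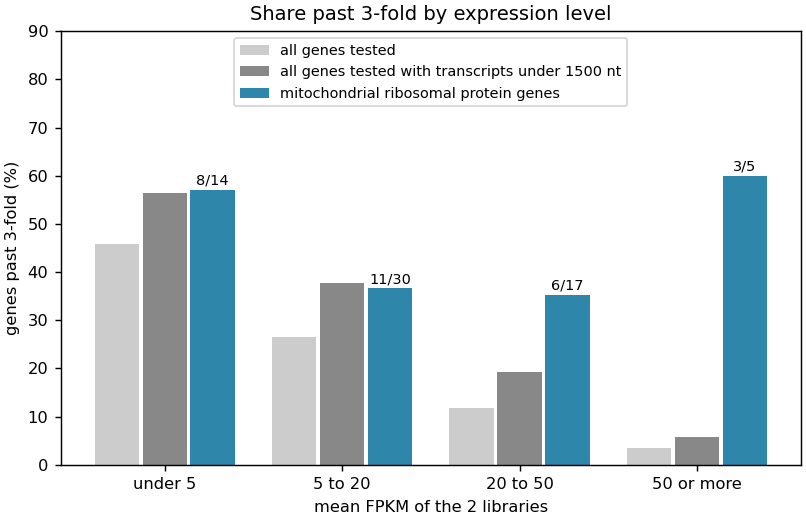
Percentage of genes past 3-fold in either direction, by mean FPKM of the libraries, for all genes tested (light grey), all genes tested with transcripts under 1500 nt (dark grey) and the mitochondrial ribosomal protein genes of any length (blue, with counts). The blue bars exceed the grey ones most at a mean of 50 FPKM or more, where only 5 of these genes lie.

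The large subunit genes were divided by origin. Of 25 genes with bacterial counterparts, 10 were higher and 4 lower, with a median of 0.48, beside 13.6% higher and 13.7% lower over all genes tested. Among 17 mitochondria-specific genes of the large subunit, 2 were higher and 1 was lower, with a median of 0.40. Of the 10 higher genes with bacterial counterparts, 6 were listed at 0 in WT. When both libraries had to reach 1 FPKM, the median of that set was 0.0010 over 15 genes, with 3 higher and 1 lower, and that of the mitochondria-specific set was 0.40 over 15 genes, with 1 higher. Mrpl23, whose protein lines the exit tunnel, was the highest of all 76 genes in KO, at 57.2 FPKM in WT against 206 in KO, a difference of 1.83. Mrpl42, a mitochondria-specific protein, was at 13.5 and 51.7 FPKM. Both genes were well above 0 in each library. Mrpl41 (3.52 and 12.2 FPKM) and Mrpl30 (39.96 and 56.3) were above their WT value without passing 3-fold on the log2(FPKM + 1) scale. Mrpl27, whose bacterial relative reaches the peptidyl transferase centre, was at 5.03 FPKM in WT against 19.4 in KO. Mrpl32, a core protein that is matured by a protease of the inner membrane, was at 1.10 and 13.0 FPKM, and Mrpl12, of the stalk that recruits translation factors, was at 0.418 and 5.19.

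A further 7 large subunit genes were listed at 0 in WT and above 1 FPKM in KO, and no small subunit gene was. Over all genes tested, 9.26% were listed at 0 in WT only. Mrpl13 stood at 49.2 FPKM in KO, Mrpl34 at 25.3 and Mrpl9 at 16.9. All 3 are core proteins with bacterial counterparts. Lower KO values were found for Mrpl21 (4.27 FPKM), Mrpl45 (2.97), Mrpl15 (2.87) and Mrpl1 (2.44). Mrpl45 encodes the protein that anchors the exit of the tunnel to the inner membrane. No fold change is given for these genes, because a 0 in an FPKM table can be a failed estimate. By the estimated depth, their KO values rested on 30.9 to 351 fragments.

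Large subunit genes that were lower in KO were led by Mrpl14, listed at 76.8 FPKM in WT against 0 in KO. Its protein lies on the face that meets the small subunit. Mrpl18, of the central protuberance, was at 7.23 FPKM in WT against 0 in KO, and Mrpl43 was at 2.78 and 0. Mrpl20 was at 68.5 and 20.3 FPKM, a difference of -1.71, and Mrpl35 was at 5.23 and 0.537. The order of the highest large subunit genes differed in part between the libraries. In WT it was Mrpl14, Mrpl20, Mrpl54, Mrpl55 and Mrpl23, and in KO it was Mrpl23, Mrpl55, Mrpl30, Mrpl54 and Mrpl42. Mrpl55 was level, at 61.4 FPKM in both libraries, and Mrpl54 was at 64.6 and 52.0.

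Neighbourhoods within the large subunit did not all carry the same pattern. Of the stalk genes that passed, Mrpl10 was at 7.39 FPKM in WT against 21.7 in KO and Mrpl54 was the one below its WT value. In the exit tunnel Mrpl23 and Mrpl45 were higher, Mrpl24 was at 49.6 and 36.1 FPKM, and Mrpl22 and Mrpl47 were listed at 0 in both libraries. Among 6 central protuberance genes 1 was higher (Mrpl27) and 1 was lower (Mrpl18), beside 13.6% higher and 13.7% lower over all genes tested. Mrpl38 was at 17.6 and 31.9 FPKM, Mrpl40 at 4.58 and 14.2, Mrpl46 at 8.31 and 12.7, and Mrpl48 at 23.1 and 7.92. Genes that are structural neighbours in the finished particle thus stood on both sides of 0.

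Small subunit genes were lower in KO more often than higher. The top gene of the whole family in WT was Mrps18c, at 135 FPKM, and it was listed at 0 in KO. Mrps16 was at 19.3 FPKM in WT against 0 in KO, and Mrps22 at 18.8 and 0. Inherited loss of either of these last genes is known to impair respiratory chain assembly in people. Over all genes tested, 7.86% were listed at 0 in KO only. The WT values of these small subunit genes rested on an estimated 132 to 506 fragments. Values in both libraries were available for the other 6 that were lower. Mrps14 went from 24.3 to 1.27 FPKM, a difference of -3.48, and Mrps28 from 22.8 to 2.40, a difference of -2.81. Mrps5, which lies where mRNA enters, was at 11.5 and 1.83 FPKM. Mrps30 was at 10.6 and 1.801, Mrps33 at 37.1 and 9.21, and Mrps18b at 37.1 and 11.3.

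Only 2 small subunit genes were higher past 3-fold. Mrps21 was at 48.1 FPKM in WT against 168 in KO, a difference of 1.78, which made it the highest small subunit gene in KO. Mrps26 was at 8.22 and 30.9 FPKM, a difference of 1.79. Mrps25 (3.28 and 8.69 FPKM) and Mrps7 (8.63 and 14.9) were above their WT value without passing 3-fold. Mrps15 (59.9 and 30.6) and Mrps9 (25.2 and 8.11) were below it, as was Mrps27, a pentatricopeptide repeat protein gene (2.09 and 0.228). These genes did not pass 3-fold on the log2(FPKM + 1) scale. In plain FPKM the ratio of WT to KO was 3.10 for Mrps9 and 9.17 for Mrps27. By origin, genes with bacterial counterparts had a median of -0.69 over 14 genes, with 1 higher and 5 lower. Mitochondria-specific genes had a median of -1.33 over 7 genes, with 1 higher and 3 lower. Over all genes tested, 13.6% were higher and 13.7% were lower. When both libraries had to reach 1 FPKM, the medians of these sets were -0.13 over 12 genes and -0.07 over 5 genes.

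A few symbols do not say where the protein sits. The proteins of Mrps18a and Mrps30 are part of the large subunit, and that of Mrps36 belongs to the 2-oxoglutarate dehydrogenase complex of the citric acid cycle. Mrps18a was at 20.3 FPKM in WT against 55.0 in KO, whereas Mrps30 was lower, and Mrps36 was at 7.08 and 14.8. With these genes placed by structure the median was 0.44 for 44 large subunit genes and -0.95 for 21 small subunit genes. The S18 relatives, which share an ancestor, therefore stood apart from each other. Mrps18c and Mrps18b were lower in KO, and Mrps18a, the relative in the large subunit, was above its WT value at 2.71-fold in FPKM. Of 5 subunits that go by other names, 4 were below their WT value, 2 of them past 3-fold, and the median was -1.06. Over all genes tested, 13.7% were lower past 3-fold. Ptcd3, which guides mRNA into the small subunit, was at 11.0 FPKM in WT against 0 in KO, and Chchd1 was at 43.8 and 2.86. Dap3 was at 4.72 and 8.13 FPKM, Aurkaip1 at 26.4 and 15.0, and Gadd45gip1 at 1.94 and 0.408.

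Genes with nearly equal values in both libraries were found as well. Closeness was taken here as the ratio of plain FPKM values, among the 50 genes at 1 FPKM or more in both libraries. The 8 closest pairs were those of Mrpl16, Mrpl17, Mrpl36, Mrpl50, Mrpl54, Mrpl55, Mrps2 and Mrps23. Of these, Mrpl54 had the widest ratio, 1.24 of WT to KO. Some genes share stretches with another gene, and reads from those stretches may not tell the genes apart. The share of such reads was not measured. Exons of 17 of the 66 genes overlap those of another coding gene in GRCm38, and no strand-marking step is stated for the libraries. These 17 include 6 of the 13 genes listed at 0 in 1 library (Mrpl13, Mrpl9, Mrpl21, Mrpl14, Mrpl18 and Mrpl43), 4 of the 14 higher genes and 4 of the 14 lower genes. Mrpl46 and Mrps11 are a divergent pair on chromosome 7 whose annotated starts overlap. Both were above their WT value, Mrpl46 at 8.31 and 12.7 FPKM and Mrps11 at 23.0 and 38.3. Without the overlapping genes, a choice made after seeing the data, the medians were 0.55 for the large and -1.33 for the small subunit.

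Promoters were compared because genes of this family are known to be served by the nuclear respiratory factors, which bind sites of the NRF1 and ETS type. Windows of 250 bases before and 50 after the start were available from RefSeq (GRCm38.p6) for 67 of the 76 genes, 73 windows in all. All motifs were searched on both strands. The NRF1 motif, spelled as GCGC, any base and TGCGC, was in 17.8% of the 73 windows, beside 6.38% of 21263 windows of coding genes. CCGGAAG, the ETS core, was in 34.2% beside 11.6%, and AAGATGGC, the core of the YY1 site, was in 16.4% beside 3.05%. The HIF core ACGTG was in 26.03% beside 20.9%, and the E-box CACGTG, which contains that core, was in 9.59% beside 7.84%. Some genes have several windows. Counted by gene, the HIF core was in 16 of 67 beside 4065 of 17492, and the E-box in 5 of 67 beside 1559 of 17492, so neither was clearly above the background. The NRF1 motif was in 6 of 12 windows of genes that were higher in KO and in 1 of 14 windows of genes that were lower. For the ETS core these counts were 5 of 12 and 7 of 14, for the HIF core 2 of 12 and 5 of 14, for the YY1 core 2 of 12 and 1 of 14, and for the E-box 0 of 12 and 2 of 14. These splits by direction were looked at after the values were known and were not tested. A match of letters is not evidence of binding.

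The NRF1 motifs that lie before the start are shown for 4 of the genes higher in KO. They serve as examples of the motif with the widest gap in counts between the directions. Mrpl32 and Mrps26, also higher, carry the motif in their windows and are not shown. Mrpl14, which was lower, carries it after the start and is not shown. The stretches shown are printed 5′ to 3′ on the strand of the gene, with the motif in capitals. Mrpl9 (chr3:94443288-94443335, plus strand) carries it 18 bases before the start, Mrpl12 (chr11:120484536-120484585, plus strand) 71 bases before and Mrps21 (chr3:95871576-95871625, minus strand) 81 bases before. Mrpl45 (chr11:97315576-97315707, plus strand) carries it at 2 places.
Mrpl9: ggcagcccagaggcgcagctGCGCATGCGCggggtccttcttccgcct
Mrpl12: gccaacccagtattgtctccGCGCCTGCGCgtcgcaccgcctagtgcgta
Mrps21: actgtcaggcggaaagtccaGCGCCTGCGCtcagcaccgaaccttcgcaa
Mrpl45: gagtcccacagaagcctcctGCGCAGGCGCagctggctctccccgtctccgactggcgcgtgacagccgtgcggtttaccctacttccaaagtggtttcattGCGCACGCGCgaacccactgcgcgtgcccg

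Stretches of 3 genes listed at 0 in KO are shown as examples of the ETS core, which is in capitals and may lie on either strand. This core was found in both directions, and Mrps21 carries it as well. In Mrps18c, the gene with the highest WT value, the capitals also mark an E-box 1 base away from the ETS core. The positions are chr5:100798576-100798629 on the plus strand for Mrps18c, chr9:98601680-98601710 on the minus strand for Mrps22 and chr19:45006443-45006518 on the minus strand for Mrpl43.
Mrps18c: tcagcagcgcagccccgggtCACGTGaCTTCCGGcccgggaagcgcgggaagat
Mrps22: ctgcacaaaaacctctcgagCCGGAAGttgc
Mrpl43: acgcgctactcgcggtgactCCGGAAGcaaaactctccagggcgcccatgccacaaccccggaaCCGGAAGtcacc

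The factors that build and run the mitochondrial ribosome were examined next. Of 23 assembly genes 15 passed the filter, with 4 higher, 5 lower and a median of -0.06. Over all genes tested, 13.6% were higher and 13.7% were lower. Malsu1, which binds the protein of Mrpl14 and keeps the subunits apart during assembly, had no signal listed in WT and stood at 24.9 FPKM in KO, opposite to Mrpl14. Mpv17l2 (39.5 FPKM in KO), the GTPase Mtg2 (7.02) and Mterf4 (4.13) were also listed at 0 in WT. Mterf4 acts in a complex with the RNA methyltransferase Nsun4, which was at 5.99 FPKM in WT against 0.415 in KO. Mettl15, a methyltransferase of the small subunit RNA, was at 17.3 and 0 FPKM, Gtpbp10 at 5.78 and 0, Dhx30 at 14.0 and 3.75, and Mrm1 at 6.73 and 0.989. Malsu1 was also among the genes labelled in the study's heat map of these libraries, as read by eye.

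Translation factors had a median of -0.81 over 6 of 10 genes, with 1 higher and 2 lower. Over all genes tested, 13.6% were higher and 13.7% were lower. The initiation factors went opposite ways, Mtif2 being listed at 0 in WT and 10.9 FPKM in KO and Mtif3 at 5.75 and 0. Mtfmt, which formylates the initiator tRNA, was at 2.63 and 0. Tufm, the elongation factor that delivers tRNAs, was at 10.3 and 3.11 FPKM, short of 3-fold on the log2(FPKM + 1) scale. Genes that copy and transcribe mitochondrial DNA had a median of -1.12 over 8 of 9 genes. Of these 8, 2 were higher and 3 were lower, beside the same 13.6% and 13.7% over all genes tested. The RNA polymerase gene Polrmt was at 15.2 FPKM in WT against 0.175 in KO, Lrpprc at 9.97 and 0.0283, and the helicase gene Twnk, whose exons overlap those of Mrpl43, at 9.17 and 0. Tefm (0 and 10.4) and Tfb2m (0.0695 and 4.12) were higher. The mitochondrial tRNA synthetases had a median of -0.16 over 10 of 17 genes. Fars2 (13.1 and 3.39 FPKM) and Yars2 (5.19 and 0.278) were lower, as were 13.7% of all genes tested.

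**Figure D4:**
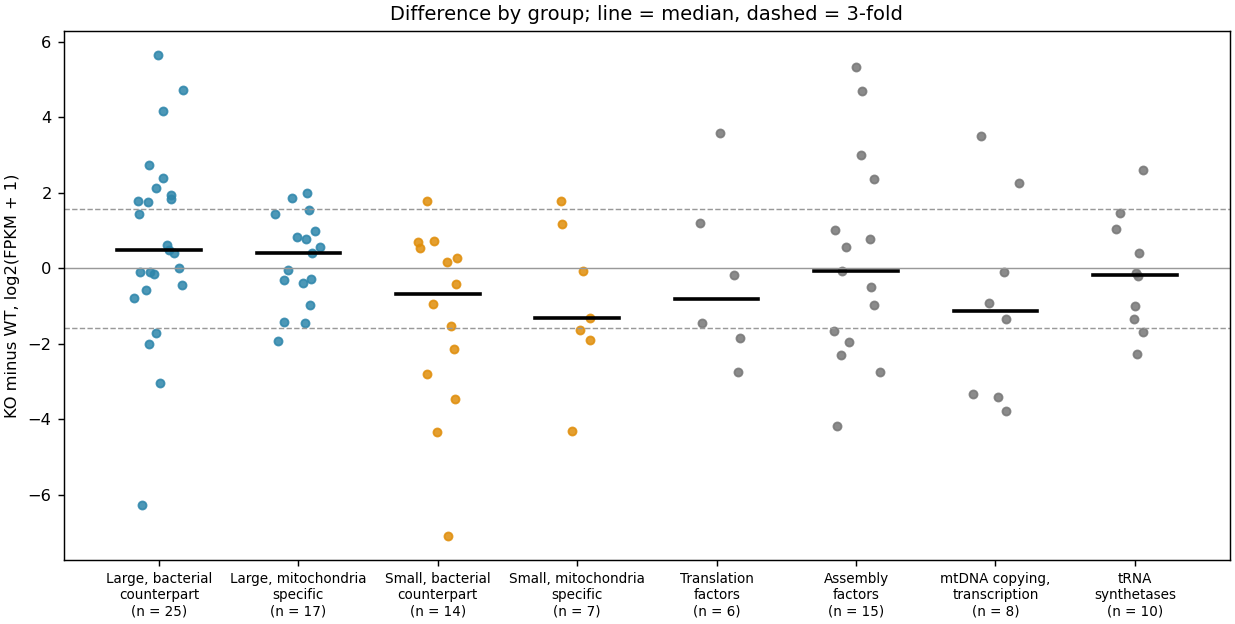
Difference KO minus WT on the log2(FPKM + 1) scale for each gene that passed the filter, in the 4 structural groups of ribosomal proteins (blue for large, orange for small) and in 4 lists of genes that serve the mitochondrial ribosome (grey), with the median as a black bar and 3-fold as dashed lines. The medians of both large subunit groups lie above 0, at 0.48 and 0.40, and those of both small subunit groups lie below 0, at -0.69 and -1.33, while for genes at 1 FPKM or more in both libraries the same medians were 0.0010, 0.40, -0.13 and -0.07.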

How the data were processed

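Poly(A) RNA of 1 WT and 1 KO library was sequenced, and the authors deposited an FPKM value per Ensembl gene and library. The submitters' processing notes name CASAVA 1.8.2, TopHat2 2.0.9, Cufflinks 2.2.1 and the mm9 build. The annotation, filters and any strand setting are not given in the sources used here. The KO values were read from the column that carries the abbreviation for mutant. FPKM values are not counts, so no count model was used. Of 20749 rows, 401 repeated another row in full and were dropped, and 18 further rows of a repeated identifier were summed. None of these were members. Of 20330 identifiers, 98.5% had a symbol in GENCODE M21 (GRCm38), from which transcript lengths and positions were taken. A length was the median over coding transcripts.

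Depth was estimated from the smallest recurring product of FPKM and length in kilobases in genes with a single transcript, 0.170 in WT (19 genes) and 0.134 in KO (20 genes). Fragment numbers are estimates that cover counting error only. They use the whole annotated length, and for Mrpl11 they came to 0.68 in WT and 0.231 in KO, below 1 fragment, so they are rough. Members and gene lists were chosen with earlier results of these data known. All members could be named. Values were given for those listed at 0 in 1 library, the 8 largest rises and 8 largest falls among members at 1 FPKM or more in both libraries, the 5 highest and 5 lowest of each subunit by mean FPKM, those whose subunit differs from their symbol, and the S18 relatives. They were also given for genes past 3-fold in the lists of factors and of subunits under other names. Cell markers were given mainly as sums. Other members named for comparison were chosen after their values were seen. Alternatives were other pseudocounts, filters, scalings, thresholds and member sets. Python 3.11.15 and pandas 2.3.3 were used. The result for 1 list gene is not reported here.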

Additional observations from a re-analysis of the deposited data

How the results depend on the processing

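The counts that moved by over 1.5 times were those under stricter filters or fewer genes. When both libraries had to reach 1 FPKM the counts fell to 6 higher, 7 lower and 0 listed at 0 in 1 library. That filter leaves out every gene listed at 0 in a library, however high it stood in the other. Mrps18c, at 135 FPKM in WT and 0 in KO, was among the genes left out. With a mean of 5 FPKM or more, which leaves out low genes, the counts fell to 9 higher and 7 listed at 0. Without genes whose exons overlap another coding gene, an alternative chosen after seeing the data, 7 were listed at 0. Over all alternatives the large subunit median lay between 0.20 and 0.55, the small subunit median between -1.33 and 0.05, and the gap between them between -1.88 and -0.15. The value of 0.05, from the filter on both libraries, was the only small subunit median above 0. Scaling to the same summed FPKM moved the median of all genes from 0.03 to 0.07. No paired analysis was possible because there was a single library of each genotype. For each of the 13 genes listed at 0 in 1 library, the other library held an estimated 22.8 fragments or more, and the part of depth in these zeros was not tested. When both libraries had to reach 1 FPKM, the WT medians of the subunits no longer differed in the same direction, at 14.7 FPKM for the large and 14.5 for the small subunit.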

Other observations

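Across the 50 mitochondrial ribosomal protein genes that reached 1 FPKM in WT and in KO, Pearson's r between the log2(FPKM + 1) values of the libraries was 0.53 and Spearman's rho was 0.55. Over all 7586 such genes these were 0.86 and 0.79. For the 30 large subunit genes r was 0.69, and for the 20 small subunit genes it was 0.35. These correlations run across genes that share a library, genes are not independent replicates, and the range of levels is narrower within the family than over all genes.

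Lars2, the mitochondrial leucyl-tRNA synthetase gene, was listed at 1385 FPKM in WT against 3844 in KO, short of 3-fold. The other 16 genes of its list did not pass 20.41 FPKM in either library. Its value thus made up nearly all of the summed level of that list. Whether the reads behind that value came from the transcript of this gene was not tested.

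The 6 members under 1 FPKM in both libraries but listed above 0 in at least 1 were Mrpl2 (0 and 0.463 FPKM in WT and KO), Mrpl11 (0.175 and 0.0466), Mrpl19 (0.261 and 0.182), Mrps12 (0.973 and 0), Mrps34 (0 and 0.718) and Mrps35 (0 and 0.289). Mrps12 encodes the protein of the decoding centre.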
